A study of Mus musculus with 38 samples.

Results

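The G1 cyclins and their kinases were taken as the 10 genes Ccnd1, Ccnd2, Ccnd3, Ccne1, Ccne2, Ccna2, Cdk2, Cdk4, Cdk6 and Cdc25a, found by symbol among the 21705 genes of an RNAseq table of 38 mouse libraries. Cell lines from 3 kidney tumours carrying a Dox-inducible Tet-O-Myc transgene were each sequenced with and without Dox, in 4 libraries a group. By the study's text the lines were grown in 2 µg/ml Dox. They were then plated with it or without it, and RNA was taken 24 hours later. A rise or fall with Dox below therefore compares Dox kept with Dox removed, not Dox given to untreated cells. MYC-2983 cells came from a MYC tumour (genotype MYC+), VM-3055 cells from a VM tumour (Vhl-/-; MYC +) and VIM-3039 from a VIM tumour (Vhl-/-; MYC +; Ink-/-/Arf-/-), and each line stands for 1 tumour. The other libraries were 3 each of MYC, VM and VIM tumours from mice kept on Dox and 5 of Wild Type kidney from mice given vehicle, of which 2 are titled B6 and 3 KT. The transgene's activator and the tamoxifen-inducible Cre that removes Vhl were both driven by the Ksp promoter of renal tubule cells, whereas the Ink/Arf deletion was germline. The labels give no age, and line numbers for the VM and VIM cells come from the study's text.

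In the G1 phase, D-type cyclins bind CDK4 or CDK6 and start the phosphorylation of the RB protein, which restrains E2F transcription factors. E-type cyclins, whose genes are E2F targets, then bind CDK2 and carry the cell into S phase, and cyclin A2 takes over CDK2 during DNA replication. CDC25A is the phosphatase that removes inhibitory phosphates from CDK2. MYC is known to bind the E-box CACGTG and to act on several of these genes, and in the kidney most tubule cells are at rest.

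Promoter sequence is shown for members whose RNA levels are followed below and whose entry is in the RefSeq table (GRCm38.p6), which held 6 of the 10 members. Ccnd1, Ccnd2, Ccne2 and Ccna2 were not among them. The 250 bases before each RefSeq start were searched for the E-box CACGTG, which reads alike on both strands, and for the E2F-type letters TTTCCCGC, TTTCGCGC, TTTGCCGC and TTTGGCGC on both strands. Capitals mark the matches. Each window was placed by 1 exact match in mm9, and bases inside the annotated gene were left off.
Cdk4: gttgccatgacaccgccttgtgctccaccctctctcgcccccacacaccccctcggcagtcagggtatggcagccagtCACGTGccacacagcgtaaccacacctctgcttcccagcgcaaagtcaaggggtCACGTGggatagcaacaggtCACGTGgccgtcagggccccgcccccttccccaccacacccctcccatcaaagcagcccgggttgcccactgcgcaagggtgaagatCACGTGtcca
Cdk6: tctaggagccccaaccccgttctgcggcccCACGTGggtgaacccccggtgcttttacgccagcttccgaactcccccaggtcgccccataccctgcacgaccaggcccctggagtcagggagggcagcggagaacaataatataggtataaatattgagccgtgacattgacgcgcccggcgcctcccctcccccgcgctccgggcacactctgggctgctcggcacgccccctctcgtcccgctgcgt
Cdc25a: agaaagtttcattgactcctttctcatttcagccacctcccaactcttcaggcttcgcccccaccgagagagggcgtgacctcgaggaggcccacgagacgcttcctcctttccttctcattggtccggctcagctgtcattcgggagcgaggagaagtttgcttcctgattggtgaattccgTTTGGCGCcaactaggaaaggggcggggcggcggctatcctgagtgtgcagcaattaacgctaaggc
Cdk2: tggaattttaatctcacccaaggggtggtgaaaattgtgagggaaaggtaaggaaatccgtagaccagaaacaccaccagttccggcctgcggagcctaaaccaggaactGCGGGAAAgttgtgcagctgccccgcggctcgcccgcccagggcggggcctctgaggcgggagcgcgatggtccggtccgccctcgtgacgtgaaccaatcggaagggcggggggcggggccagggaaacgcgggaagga
Ccne1: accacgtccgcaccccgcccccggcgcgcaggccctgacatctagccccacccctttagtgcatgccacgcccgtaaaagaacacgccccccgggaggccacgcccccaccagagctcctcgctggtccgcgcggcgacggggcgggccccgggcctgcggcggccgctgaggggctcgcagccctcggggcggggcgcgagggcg
The windows are chr10:126500341-126500589 (+) for Cdk4, chr5:3343643-3343892 (+) for Cdk6, chr9:109777833-109778082 (+) for Cdc25a, chr10:128142108-128142357 (-) for Cdk2 and chr7:38892554-38892759 (-) for Ccne1. Cdk4 held 4 E-boxes, which begin 172, 118, 98 and 11 bases before the start, and Cdk6 held 1 at 220 bases. An E-box was present in 6.02% of the 32851 promoter windows of the table, and 7 of them held 4 or more. An E2F-type match lay 67 bases before the start of Cdc25a and 140 bases before that of Cdk2, against 1.86% of all windows. These letters were not found in the Ccne1 window, nor in either of the 2 Ccnd3 windows, which are not shown.

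In mm9 the members lie at chr7:152115836-152125774 (Ccnd1), chr6:127075797-127101066 (Ccnd2), chr17:47642000-47736632 (Ccnd3), chr7:38883003-38892553 (Ccne1), chr4:11118498-11131926 (Ccne2), chr3:36463788-36471072 (Ccna2), chr10:128134995-128142107 (Cdk2), chr10:126500590-126504976 (Cdk4), chr5:3343893-3523218 (Cdk6) and chr9:109778083-109796392 (Cdc25a). Of these, 7 overlap a gene on the other strand, namely Oraov1 (Ccnd1), 9330179D12Rik (Ccnd2), Bysl (Ccnd3), Ints8 (Ccne2), Exosc9 (Ccna2), Tspan31 (Cdk4) and Gm17590 (Cdk6). The kit marks strand, but the strand setting of the counting is not given in the sources used here, so reads of the overlapping partners cannot be told apart. Levels are the authors' RSEM values scaled to an upper quartile of 1000 in each library, called units here.

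The libraries held 8.22 to 36.58 M estimated reads, and 3 reads, taken as the floor of detection, were worth 1.16 to 5.65 units. Where nothing names separate cultures, p-values for the cell lines measure only the spread between these libraries. As a check of the labels, Vhl had 451 ± 12.2 units in MYC-2983 cells with Dox (SD, n = 4) against 13.1 ± 2.07 in VM-3055 and 12.7 ± 4.01 in VIM-3039, and Cdkn2a, the Ink4a/Arf gene, had 3171 ± 102, 3804 ± 360 and 29.98 ± 4.09 units. In the tissues Vhl ran from 612 to 772 units in kidney, 468 to 560 in MYC, 40.2 to 79.9 in VM and 219 to 312 in VIM tumours, so that the VIM tumours lay between the VM and MYC tumours. The mouse Myc row ran against the Dox label, with 676 ± 23.8 units in MYC-2983 libraries labelled Dox and 1831 ± 45.7 in those without, 384 ± 33.7 and 1364 ± 46.5 in VM-3055 and 381 ± 34.2 and 1479 ± 65.4 in VIM-3039. By the study's immunoblots, MYC protein in these 3 lines depended on Dox, a measure of protein and not of this RNA row. Whether the transgene's reads are in this row is not given in the sources used here, and "with Dox" below means the libraries labelled so. Of the marker genes, 2 of 8 leukocyte markers (Emr1, at 0, and Cd3e), 2 of 6 endothelial markers (Tek and Emcn) and the fibroblast marker Fap were at or under the floor in all 24 cell libraries. Other genes of those lists were not, and Csf1r ran from 198 to 872 units in the cell libraries, against 436 to 1498 in kidney. Ptprc and Cd68 averaged 58.3 ± 11 and 56.5 ± 8.92 units (SD, n = 4) in VM-3055 cells without Dox, and the collagen gene Col1a1 averaged 407 ± 22 in MYC-2983 without Dox. The kidney markers Cdh16, Pax8, Pax2, Lrp2 and Epcam were above it in all of them, whereas Slc34a1, Umod and Aqp2, which define mature tubule segments, were at or under it. The summed kidney epithelium markers were lower with Dox (14768 to 15927 against 20805 to 22921 units in MYC-2983, 9576 to 11117 against 17812 to 20517 in VM-3055 and 8968 to 9585 against 13383 to 14506 in VIM-3039), as were the fibroblast markers (215 to 269 against 974 to 1125, 85.7 to 112 against 631 to 711 and 52.8 to 71.4 against 182 to 241). Much of the kidney sum is Cdh16, with a mean of 8903 units in MYC-2983 with Dox and log2 differences of −0.52, −1.37 and −0.99. Epcam was instead higher in MYC-2983 (0.33) and VIM-3039 (0.84), and Pax2 differed by 0.01 in VIM-3039. Of these values only that of Cdh16 in VM-3055 was called. Slc12a3 in MYC-2983 (−5.07) and Slc12a1 in VM-3055 (−1.22) were called lower as well. Pax8 was lower by less than the size threshold in each line (−0.56, −0.96 and −0.45), as was Pax2 in MYC-2983 (−0.94). The summed leukocyte markers were lower as well (218 to 255 against 443 to 474 units, 363 to 408 against 946 to 1013 and 287 to 315 against 371 to 446). Among them Cd68 and Cd79a were called lower in MYC-2983 (−1.25 and −1.54 on the log2 scale) and Ptprc, Cd68, Itgam and Csf1r in VM-3055 (−1.95, −1.92, −1.48 and −1.30), with 0 called in VIM-3039. Cd79a averaged 0.686 units with Dox and 3.75 without in MYC-2983, and all 4 libraries with Dox were at or under the floor. Itgam averaged 2.26 and 7.27 units in VM-3055, with 3 of the 4 libraries with Dox at or under it. The part of these cell types in the Dox results was not tested.

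**Figure D1:**
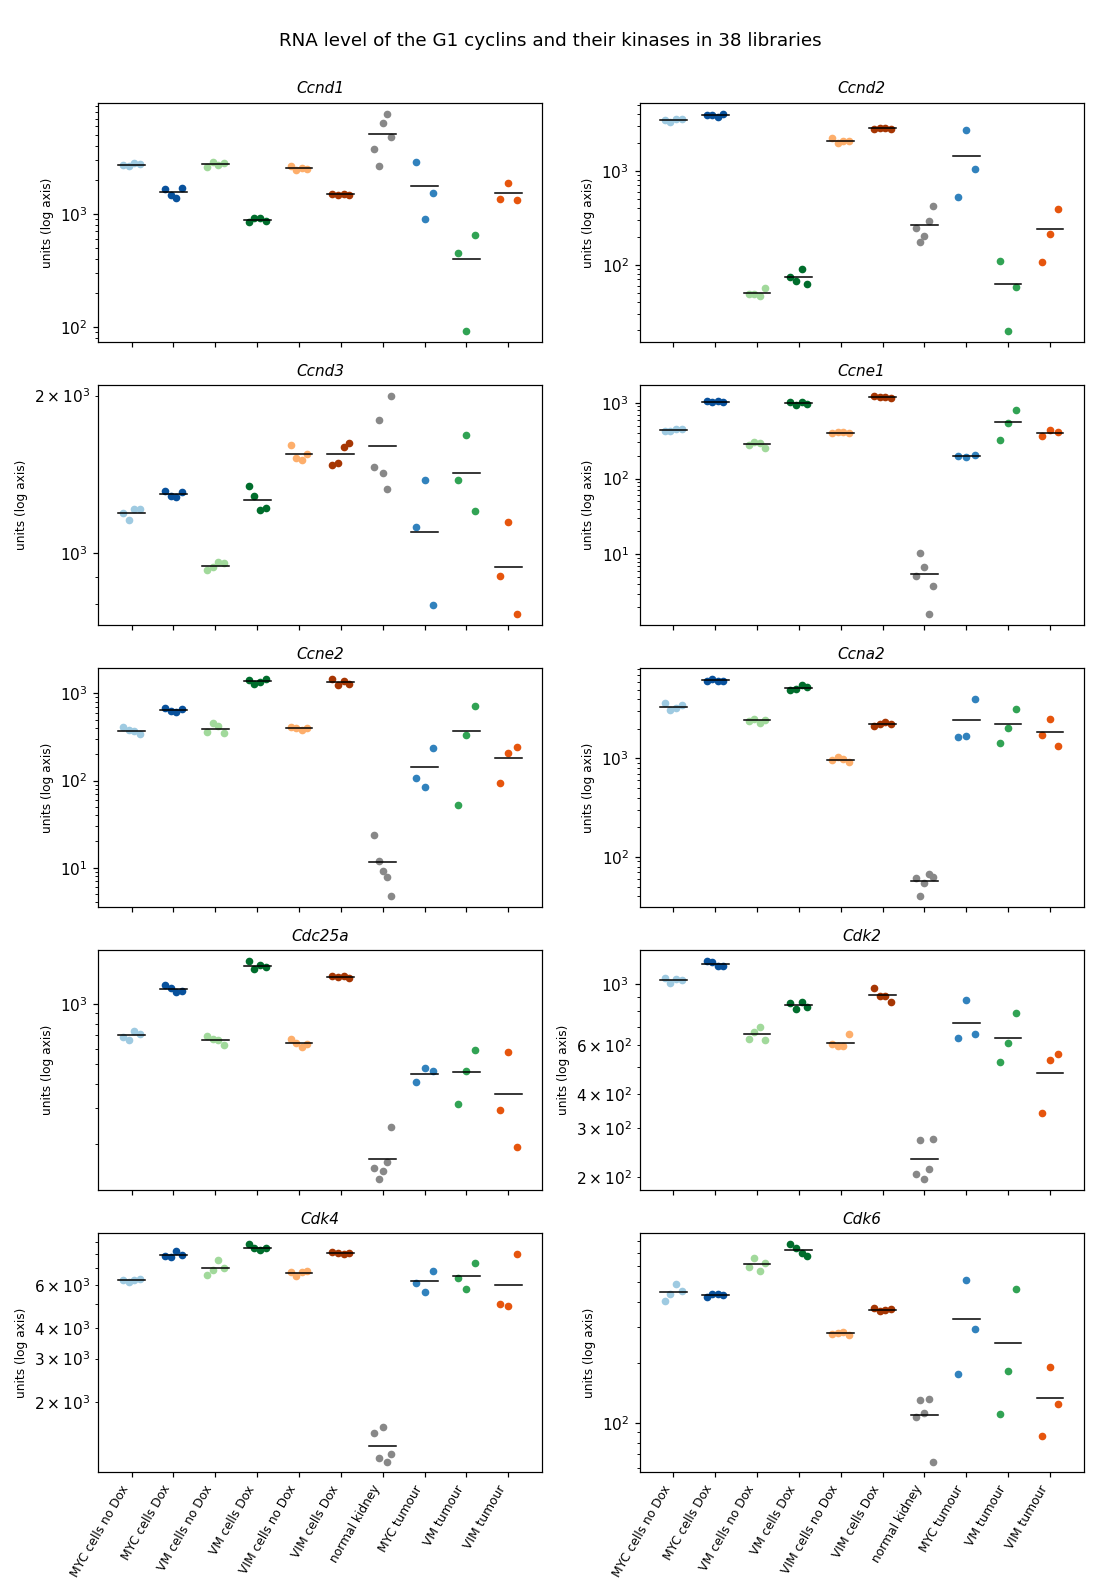
RNA level of each member in every library (points, units on a log axis) for 10 groups, with the mean of each group as a line. Ccne1, Ccne2, Ccna2 and Cdk4 sit lowest in normal kidney, Ccnd1 sits highest there, and Ccnd2 lies between 46.5 and 89.1 units in VM-3055 cells against 2004 to 4088 units in the other lines.

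With Dox, the E cyclins, Ccna2 and Cdc25a were higher in all 3 lines and Ccnd1 was lower, whereas the kinase genes stayed within a log2 difference of 1. A gene was called where limma gave a Benjamini-Hochberg adjusted p under 0.05 and a log2 difference of more than 1 in size. In VM-3055 cells 4 members were called higher (Ccne1, Ccne2, Ccna2 and Cdc25a), against 5.92% of all genes tested, and 1 was called lower (Ccnd1), against 18.9%. In VIM-3039 the same 4 were called higher, against 7.67% of genes, and 0 lower, against 16.6%. In MYC-2983 cells only Ccne1 was called higher, against 4.49%, and 0 members lower, against 15%. On adjusted p alone 9 of the 10 members passed in MYC-2983, 10 in VM-3055 and 9 in VIM-3039, but so did 75.5%, 73.8% and 75.3% of genes, so these counts are close to the background. The median log2 difference of the members was 0.269, 0.475 and 0.498 on the log2 scale, beside −0.13, −0.256 and −0.153 over all genes tested. Rescaling shifted these comparisons as a whole. Over genes averaging 50 units or more the median was −0.05, −0.16 and −0.08 as deposited and 0.08, 0.074 and 0.075 after TMM rescaling, and lower calls made up 77.0%, 76.2% and 68.4% of calls as deposited, 67.5%, 59.5% and 56.5% after TMM and 58%, 51.5% and 50.7% after quantile normalization.

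**Figure D2:**
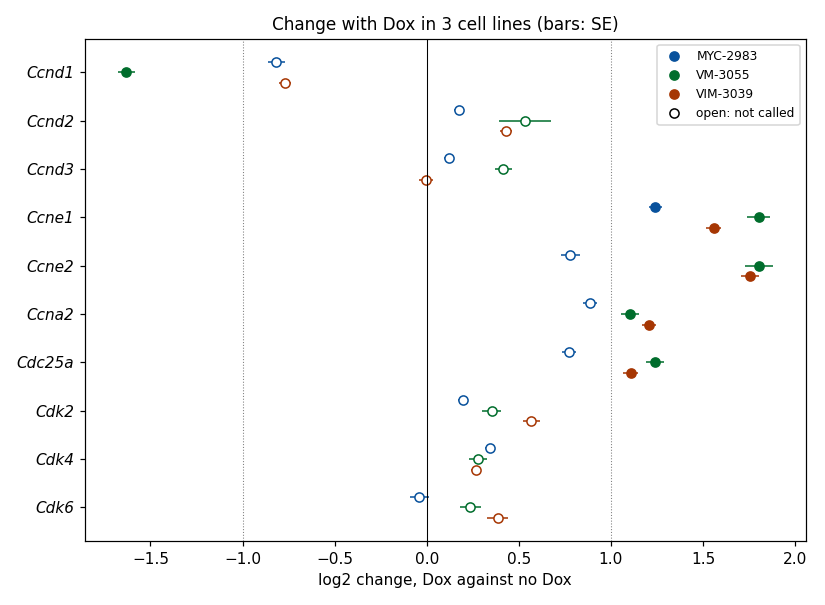
Log2 difference with Dox against without Dox for each member (x axis) in the 3 lines, with bars for the SE; filled points were called and dotted lines mark a difference of 1 in size. Ccne1 is filled in all 3 lines, and Ccnd1 is filled in VM-3055 cells alone, at −1.63.

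Cyclin D1, the product of Ccnd1, links growth factor signals to CDK4 and CDK6. In VM-3055 cells Ccnd1 had 851, 911, 918 and 869 units with Dox and 2608, 2861, 2704 and 2835 without. In MYC-2983 cells it had 1666, 1474, 1392 and 1699 units with Dox and 2726, 2644, 2804 and 2767 without. The VIM-3039 libraries held 1506, 1480, 1504 and 1461 units with Dox and 2635, 2457, 2549 and 2524 without. Libraries with Dox lay below those without in every line and the groups did not overlap, and the level without Dox was similar in the 3 lines. Ccnd1 fell in VM-3055 cells, with a log2 difference of −1.63 (SE 0.05, limma adjusted p = 2.98e-15). In MYC-2983 and VIM-3039 the differences were −0.82 (SE 0.05, adjusted p = 1.97e-11) and −0.77 (SE 0.03, adjusted p = 2.66e-15), past the p threshold but not that of size. The drop in VM-3055 cells exceeded that in VIM-3039 by 0.86 (log2, SE 0.05, interaction adjusted p = 4.87e-11).

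Cyclin D2, the product of Ccnd2, set the lines apart. In VM-3055 cells Ccnd2 had 73.9, 67.2, 89.1 and 63.2 units with Dox and 48.5, 48.9, 46.5 and 56.2 without. MYC-2983 cells had 3966, 3921, 3799 and 4088 units with Dox and 3487, 3354, 3564 and 3573 without. VIM-3039 had 2770, 2865, 2873 and 2828 units with Dox and 2218, 2004, 2102 and 2101 without. All 8 VM-3055 libraries were thus far below every library of the other lines, though well above the floor. With Dox the log2 difference was 5.26 (SE 0.08, adjusted p = 1.36e-17) between VIM-3039 and VM-3055 cells and −5.74 (SE 0.08, adjusted p = 2.18e-15) between VM-3055 and MYC-2983 cells. The line shares its number with a mouse among the VM tumours, and that tumour had the lowest Ccnd2 of the 38 libraries, at 19.6 units. Dox moved Ccnd2 by a log2 difference of 0.17 (SE 0.03) in MYC-2983, 0.53 (SE 0.14) in VM-3055 and 0.43 (SE 0.03) in VIM-3039, under the size threshold, although after quantile normalization the value in VM-3055 cells was 1.16 and was called.

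Ccnd3, which encodes the third D cyclin, stayed within a log2 difference of 1 in every comparison of lines and treatments made here. It averaged 1297 ± 16.6 and 1194 ± 28 units (SD, n = 4) in MYC-2983 cells with and without Dox, 1263 ± 63 and 946 ± 15.7 in VM-3055 and 1543 ± 76.6 and 1546 ± 44.7 in VIM-3039. The log2 Dox difference was 0.42 in VM-3055 cells (SE 0.05, limma adjusted p = 2.82e-07) and −0.00 in VIM-3039 (SE 0.04, adjusted p = 0.932). TMM rescaling turned the VIM-3039 value to 0.15, which passed the p threshold (limma adjusted p = 0.00153) but not that of size. Without Dox the VIM-3039 libraries (1509 to 1609 units) all lay above those of VM-3055 (928 to 963), and the Dox change of VIM-3039 minus that of VM-3055 was −0.42 (log2, SE 0.06, interaction adjusted p = 9.45e-06). Per exon length, the levels of the 3 D cyclins can be set side by side, but only roughly. The length is that of all annotated exons of a gene merged, not of the transcripts expressed here. In VM-3055 cells Ccnd1 made up 62.6% ± 0.941 of the summed units per kb without Dox and 28.8% ± 1.49 with it, and Ccnd3 36.6% ± 0.953 and 69.6% ± 1.63. The largest share with Dox was held by Ccnd2 in MYC-2983 cells, at 41.4% ± 0.565, and by Ccnd3 in VIM-3039, at 43.6% ± 1.23.

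**Figure D3:**
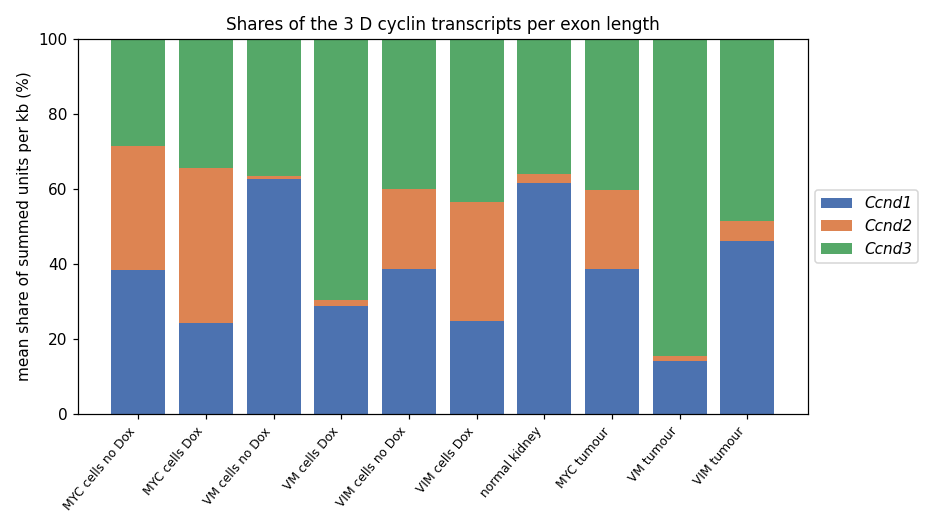
Mean share (y axis, %) of Ccnd1, Ccnd2 and Ccnd3 in their summed units per kb of exon, for each of the 10 groups; the SD over libraries is at most 19.4 percentage points (Ccnd1 in MYC tumours). Ccnd3 takes 84.4% in VM tumours and 69.6% in VM-3055 cells with Dox, and Ccnd2 takes at most 2.28% in normal kidney and in both groups of VM-3055 cells.

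Ccne1 and Ccne2 encode the cyclins that activate CDK2 at entry into S phase. Ccne1 had 1048, 1039, 1042 and 1011 units with Dox in MYC-2983 cells and 420, 430, 450 and 449 without. VM-3055 cells had 1020, 927, 1025 and 963 units with Dox and 279.5, 300.1, 293 and 254 without. VIM-3039 had 1227, 1206, 1186 and 1162 units with Dox and 396, 414, 411 and 399.8 without. The groups did not overlap, and Ccne1 was the member called in all 3 lines. Its log2 rise was 1.24 in MYC-2983 (SE 0.03, adjusted p = 4.38e-16), 1.80 in VM-3055 (SE 0.06, adjusted p = 3.39e-14) and 1.56 in VIM-3039 (SE 0.04, adjusted p = 1.29e-18).

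For Ccne2 the lines were alike without Dox and differed with it. Without Dox it averaged 375 ± 30.9 units in MYC-2983, 395 ± 51.3 in VM-3055 and 398 ± 13 in VIM-3039. With Dox it had 675, 627, 612 and 659.6 units in MYC-2983 libraries, 1408, 1269, 1365 and 1451 in VM-3055 and 1476, 1249, 1379 and 1281 in VIM-3039. Both Vhl-/- lines with Dox were thus above MYC-2983 in every library. Ccne2 rose by 1.80 in VM-3055 (SE 0.08, adjusted p = 3.76e-13) and 1.75 in VIM-3039 (SE 0.05, adjusted p = 4.66e-18), against 0.78 in MYC-2983 (SE 0.05, adjusted p = 1.41e-10). The change in VM-3055 exceeded that in MYC-2983 by 1.02 (SE 0.10, adjusted p = 8.8e-08) and that in VIM-3039 did so by 0.97 (SE 0.08, adjusted p = 1.31e-09), whereas the interaction between VIM-3039 and VM-3055 was −0.05 (SE 0.10, adjusted p = 0.746). Per kb, Ccne1 held 67.9% ± 1.10 of the pair in MYC-2983 cells with Dox, 48.5% ± 1.34 in VM-3055 and 53.9% ± 1.61 in VIM-3039.

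Ccna2, whose cyclin A2 drives S phase with CDK2, was highest in MYC-2983 cells. With Dox it had 6085, 6437, 6151 and 6036 units there, 4910, 5063, 5582 and 5269 in VM-3055 and 2142, 2257, 2315 and 2260 in VIM-3039. Without Dox the means were 3347 ± 242, 2425 ± 107 and 973 ± 48.1 units. The lines kept this order with and without Dox and their libraries did not overlap. Ccna2 rose with Dox by 1.10 in VM-3055 (SE 0.05, adjusted p = 6.74e-13) and 1.21 in VIM-3039 (SE 0.04, adjusted p = 3.5e-17). The value in MYC-2983 cells was 0.89 (SE 0.04, adjusted p = 3.86e-13), and it was 1.02, and called, after TMM rescaling.

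Cdc25a had 1244, 1205, 1152 and 1170 units with Dox in MYC-2983 cells, 1646, 1497, 1571 and 1539 in VM-3055 and 1381, 1373, 1391 and 1352 in VIM-3039. Without Dox the means were 698 ± 33, 662 ± 26 and 638 ± 24.5 units, and those groups overlapped. The phosphatase gene rose by 1.24 in VM-3055 (SE 0.05, adjusted p = 1.47e-13) and 1.11 in VIM-3039 (SE 0.04, adjusted p = 1.29e-16), with 0.77 in MYC-2983 (SE 0.04, adjusted p = 9.33e-13).

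The kinase genes moved less. Cdk4 had 7778 to 8215 units in MYC-2983 cells with Dox and 6185 to 6338 without, 8297 to 8816 and 6599 to 7575 in VM-3055, and 8031 to 8183 and 6546 to 6808 in VIM-3039. The ranges with and without Dox did not overlap, but the log2 differences of 0.34, 0.28 and 0.27 (SE 0.03, 0.05 and 0.03) were under the size threshold. Cdk2 differed by 0.20, 0.35 and 0.57 (SE 0.03, 0.05 and 0.05), also under it. Cdk6 averaged 433 ± 5.98 and 447 ± 36.5 units in MYC-2983 cells with and without Dox, a difference of −0.04 (SE 0.05, adjusted p = 0.475) that turned to 0.09 after TMM rescaling. In VM-3055 cells Cdk6 averaged 725 ± 43.8 and 615 ± 38.9 units and in VIM-3039 366 ± 5.02 and 280 ± 3.98. Per kb, Cdk6 was 3.49% to 7.10% of the summed Cdk4 and Cdk6 level as a mean of each cell group, the rest being Cdk4.

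The test of the difference between lines in their Dox change was passed, on adjusted p alone, by 4 members between VIM-3039 and VM-3055 (33.3% of genes), 9 between VM-3055 and MYC-2983 (46.2%) and 8 between VIM-3039 and MYC-2983 (47.6%). Of these, 0, 1 (Ccne2) and 0 also exceeded 1 in size, against 6.05%, 8.78% and 9.06% of genes. Lower values made up 31.6% of the genes passing between VIM-3039 and VM-3055, 60% after TMM rescaling and 45.0% after quantile normalization. Ccne1, Ccne2, Ccna2, Cdc25a, Cdk2, Cdk6 and Ccnd2 each had a Dox difference further upward in both Vhl-/- lines than in MYC-2983, but the same MYC-2983 libraries enter both comparisons. Over all genes, 2763 of 15813 passed upward for VM-3055 and 3742 of 15630 for VIM-3039, and the share upward in both was not counted. Ccnd1 passed downward for VM-3055 (−0.82), and Ccnd3 passed upward for VM-3055 (0.30) and downward for VIM-3039 (−0.12). The S numbers that end the sample titles restart for the MYC-2983 libraries and run on from the VM to the VIM cell libraries. The J numbers in the same titles instead run on from the VIM to the MYC-2983 libraries. A difference between MYC-2983 and the other lines cannot be told apart from one between these 2 series of S numbers. The smallest of these calls, Ccnd3 between VIM-3039 and MYC-2983 at −0.12, was lost on leaving out MYC cells Dox replicate 1 or 4, MYC cells no Dox replicate 2, VIM cells Dox replicate 1 or 2 or VIM cells no Dox replicate 1, with adjusted p between 0.0569 and 0.0798, and Cdk4 in that comparison passed without VIM cells no Dox replicate 2 (adjusted p = 0.0364).

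With Dox, 2 members were called between VIM-3039 and VM-3055 cells, Ccnd2 and Ccna2 (−1.21, SE 0.04, adjusted p = 1.15e-13), against 19.1% of genes. Between VM-3055 and MYC-2983 cells 2 were called, Ccnd2 and Ccne2 (1.09, SE 0.05, adjusted p = 6.05e-11), against 24.6%. Between VIM-3039 and MYC-2983 cells 2 were called, Ccna2 (−1.46, SE 0.03, adjusted p = 2.3e-14) and Ccne2 (1.06, SE 0.05, adjusted p = 1.01e-10), against 23.9%. Lower calls were 73.4% in the second pair and 76.4% in the third, and 47.7% and 51.5% after quantile normalization. The counts of members were therefore close to the background, and the size of the Ccnd2 difference, 38.4-fold and 53.5-fold, was what stood out. Cdk6 lay just inside the limit between VIM-3039 and VM-3055 cells, at −0.98 (SE 0.05), and it was called at −1.01 without VM cells Dox replicate 4 and at −1.02 after quantile normalization. Ccne1 was not called between lines, with differences of 0.28 (SE 0.04), −0.07 (SE 0.04) and 0.21 (SE 0.03), and the −0.07 between VM-3055 and MYC-2983 turned to 0.08 after TMM rescaling.

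In the tumours the E cyclins, Ccna2, Cdk2 and Cdk4 were higher than in normal kidney in all 3 genotypes, and Ccnd1 was lower. MYC tumours counted 2 of their 3 libraries, which came from mouse 2983, as 1 animal, so that MYC tumours are n = 2, VM and VIM tumours n = 3 and kidney n = 5. Where 1 MYC animal is left out below, the other is a lone sample assumed to vary like the kidneys. In MYC tumours 8 members were called higher (18.8% of genes) and 1 lower (18.6%). In VM tumours 6 were higher (17.3%) and 2 lower (22.5%), and in VIM tumours 5 were higher (18.9%) and 1 lower (20.7%). The median difference of the members was 1.74, 1.44 and 0.995 on the log2 scale, against 0.07, −0.05 and 0.01 over all genes. The 5 kidney libraries serve as control for all 3 genotypes, so the comparisons are not independent of each other.

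Whole tumours and whole kidneys differ in the cells they hold, and in such samples fewer cells of a type and less RNA per cell cannot be told apart. The summed level of 10 kidney epithelium markers ran from 223426 to 315896 units in kidney and from 9678 to 25908 in the tumours, with 8, 8 and 9 of the 10 called lower in MYC, VM and VIM tumours. The sum of 8 leukocyte markers ran from 1356 to 2357 units in kidney, 3452 to 16026 in MYC, 2289 to 7977 in VM and 7687 to 14365 in VIM tumours, with 4, 3 and 4 of them called higher and 0, 2 and 1 lower. Endothelial markers (6 genes) summed to 3266 to 5600 units in kidney and 199 to 2031 in tumours, with 5, 4 and 5 called lower, and fibroblast markers (8 genes) to 1312 to 4288 and 563 to 8742, with 2, 4 and 2 called lower. The endothelial gene Vwf went the other way, with means of 13.9 units in kidney and 51.5, 51.4 and 75.5 in MYC, VM and VIM tumours. The fibroblast gene Thy1 had means of 42.1 against 164, 83.3 and 60.2. Col1a1 had 221 against 1098, 239 and 386, with a highest MYC library of 2994. Fap, at or under the floor in all 5 kidneys, had 0.867 against 3.83, 3.35 and 2.48. Col1a2 had 649 against 1335, 301 and 691. Pdgfra, Pdgfrb, Dcn and Lum had lower means in every genotype. Among Vwf, Thy1, Col1a1, Fap and Col1a2, only Vwf in VIM tumours (41.4 to 136) lay clear of the kidneys (8.03 to 21.5). The 12 proliferation genes summed to 1798 to 2517 units in kidney and 9435 to 35637 in tumours. The part of these cell types in the results on tumours was not tested.

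**Figure D4:**
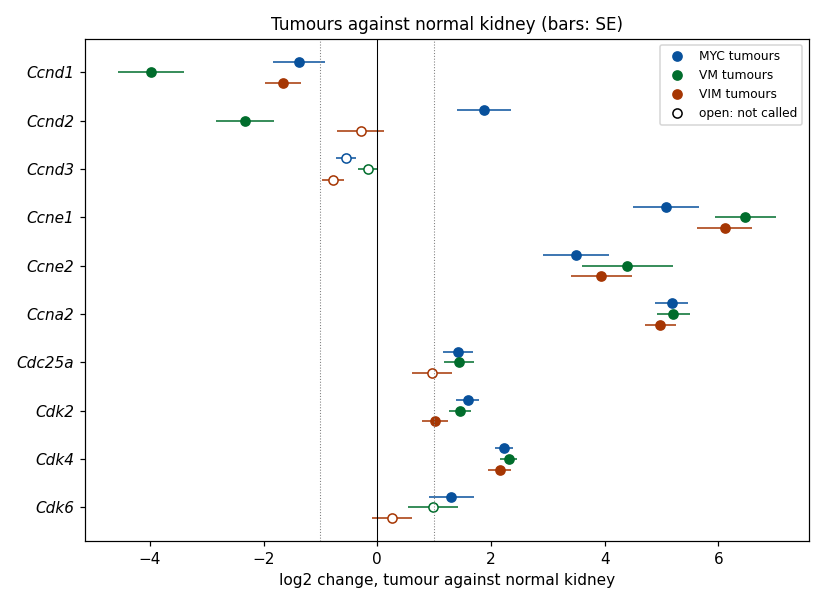
Log2 difference between tumours and normal kidney for each member (x axis) in MYC, VM and VIM tumours, with bars for the SE; filled points were called and dotted lines mark a difference of 1 in size. Ccne1, Ccne2 and Ccna2 lie between 3.50 and 6.47, and Ccnd1 lies at −1.38, −3.99 and −1.66.

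The D cyclins split in the tissues. Ccnd1 had 3795, 2671, 6379, 7759 and 4761 units in kidney, the highest mean of the 10 groups. The MYC tumours had 2857 units (mouse 2917) and 896 and 1518 (mouse 2983), the VIM tumours 1359, 1870 and 1324, and the VM tumours 447, 91.2 (mouse 3055) and 647. VM tumours did not overlap any other group and VIM tumours lay below every kidney, whereas the MYC tumour of mouse 2917 lay within the kidney range. Ccnd1 fell by 3.99 (log2) in VM tumours (SE 0.58, adjusted p = 0.000275) and by 1.66 in VIM tumours (SE 0.32, adjusted p = 0.00182). Without mouse 3055 the VM value was −3.14. In MYC tumours the call, −1.38 (SE 0.46, limma adjusted p = 0.0345), was lost after quantile normalization (adjusted p = 0.0745) and in a joint fit of the 4 tissue groups (0.0953). Nor did the MYC value hold throughout. It was −0.73 (adjusted p = 0.264) without the 2 libraries of mouse 2983 and −2.02 without mouse 2917, and it was lost without kidney 3, 4 or 5 (adjusted p 0.0659, 0.0592 and 0.0508) and against the KT (0.1) or B6 (0.0802) kidneys alone.

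Ccnd2 had 177 to 423 units in kidney, 521 (mouse 2917), 2748 and 1054 (mouse 2983) in MYC tumours, 107, 211 and 397 in VIM tumours and 109, 19.6 (mouse 3055) and 57.95 in VM tumours. MYC tumours lay above and VM tumours below every kidney. The difference was 1.88 (SE 0.47, adjusted p = 0.0106) in MYC and −2.32 (SE 0.51, adjusted p = 0.0032) in VM tumours, and −0.29 (SE 0.42, adjusted p = 0.583) in VIM tumours. Without mouse 2983 the MYC value was 1.03 (adjusted p = 0.0853), and without mouse 2917 it was 2.73, and against KT kidneys alone it missed the threshold (0.0567). In VM tumours it was −1.67 without mouse 3055, still called, and was lost against the B6 kidneys alone (0.0679). Ccnd3 had 1328 to 1995 units in kidney, 1121 (mouse 2917), 1380 and 794 (mouse 2983) in MYC, 1203 to 1681 in VM and 765 to 1146 in VIM tumours, and was not called. Per kb, Ccnd1 made up 61.7% ± 12.2 of D cyclin units in kidney, and Ccnd3 84.4% ± 11 in VM tumours and 48.7% ± 3.42 in VIM tumours.

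The E cyclins were low in kidney. Ccne1 had 5.19, 10.2, 6.69, 1.63 and 3.80 units there, with 3 of the 5 libraries (5.19, 1.63 and 3.80 units) at or under the floor of 3 reads, and 197, 191 and 202 units in MYC, 324, 534 and 800.2 in VM and 367, 434 and 406 in VIM tumours. Every tumour was far above every kidney, and all VM and VIM tumours were above all MYC tumours. The log2 differences to kidney were 5.08 (SE 0.58, adjusted p = 0.000236), 6.47 (SE 0.53, adjusted p = 7.95e-06) and 6.11 (SE 0.48, adjusted p = 9.96e-06). They depend on the constant added before taking logs, and with 10 instead of 1 they were 3.76, 5.11 and 4.75. Ccne2 had 4.68 to 23.8 units in kidney, 108, 85.1 and 238 in MYC, 51.8, 337 and 713 in VM and 94.1, 209 and 245 in VIM tumours, differences of 3.50 (SE 0.58, adjusted p = 0.00144), 4.40 (SE 0.80, adjusted p = 0.00113) and 3.94 (SE 0.54, adjusted p = 0.00022). The VM value was 5.47 without mouse 3115 and 3.59 without mouse 2459.

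**Figure D5:**
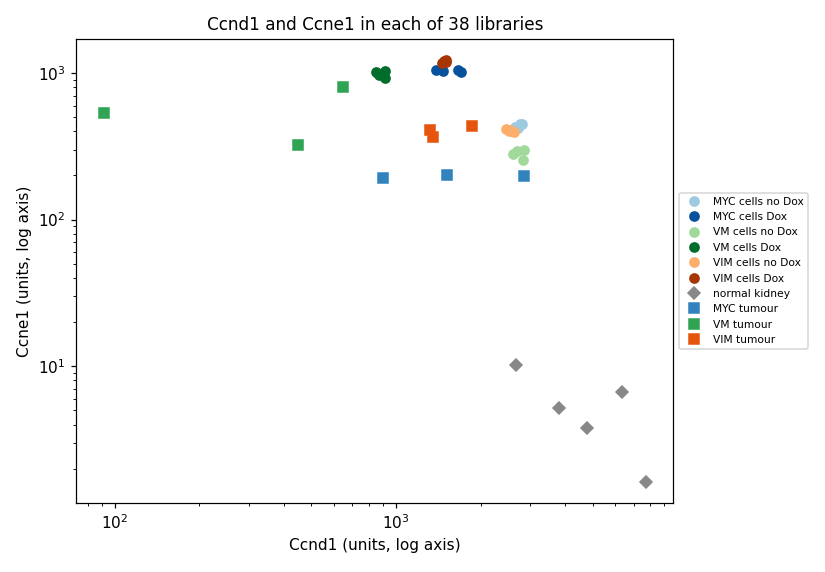
Ccnd1 (x axis) and Ccne1 (y axis) in each of the 38 libraries, in units on log axes, with circles for cells, squares for tumours and diamonds for kidney. The 5 kidneys lie at 2671 to 7759 units of Ccnd1 and at most 10.2 of Ccne1, whereas cells with Dox lie at 851 to 1699 and 927 to 1227.

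Ccna2 had 39.8 to 66.8 units in kidney and 1330 to 4004 in the tumours, with differences of 5.18 (SE 0.29, adjusted p = 9.6e-06) in MYC, 5.21 (SE 0.29, adjusted p = 6.54e-07) in VM and 4.98 (SE 0.27, adjusted p = 1.66e-06) in VIM tumours. Cdk4 had 1490, 1175, 1576, 1142 and 1223 units in kidney and 4906 to 8015 in tumours, a range that overlaps the 6185 to 8816 of the cell lines. The Cdk4 differences were 2.23 (SE 0.16, adjusted p = 3.09e-05), 2.31 (SE 0.15, adjusted p = 2.01e-06) and 2.15 (SE 0.20, adjusted p = 2.55e-05). Cdk2 had 197 to 275 units in kidney, 636 to 875 in MYC, 525 to 784 in VM and 343 to 560 in VIM tumours, without overlap of kidney and tumours. It was higher by 1.59 (SE 0.20) and 1.45 (SE 0.20) in MYC and VM tumours. In VIM tumours the 1.02 (SE 0.23, adjusted p = 0.00416) lay at the size threshold and fell under it, to between 0.89 and 0.99, without the VIM tumour of mouse 3233 or 3130 or without kidney 1, 3 or 4. It was also under the threshold with a pseudocount of 10 (0.9925), TMM (0.9975) or quantile scaling (0.9888) and against KT kidneys alone (0.8921).

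Cdc25a had 133 to 243 units in kidney and was higher by 1.42 (SE 0.26, adjusted p = 0.00242) in MYC and 1.44 (SE 0.27, adjusted p = 0.00131) in VM tumours. In VIM tumours it had 294, 576 and 193 units, a difference of 0.97 (SE 0.35, adjusted p = 0.0425) under the size threshold, which was 1.33 without mouse 3130 and 1.11 without kidney 5, and then called. Cdk6 had 64.5 to 132 units in kidney and reached 514 units in a MYC tumour of mouse 2983. It was called in MYC tumours, at 1.30 (SE 0.39, limma adjusted p = 0.0239), but not against KT (0.0789) or B6 (0.0841) kidneys alone. The call was also lost after quantile normalization (0.0861) and in the joint fit (0.0647). Without mouse 2983 the value was 0.73, under the size threshold. In VM tumours it was 0.98 (SE 0.44, adjusted p = 0.0863), and 1.44 and called without mouse 3115, and in VIM tumours 0.26 (SE 0.35). Cdk4 made up 93.2% ± 2.06 to 97.98% ± 1.06 of the Cdk4 and Cdk6 units per kb in the tissue groups.

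Between tumour genotypes 0 members were called by limma in each pair, against 0.249% of genes between VIM and VM, 0.0% between VM and MYC and 0.00616% between VIM and MYC tumours. At an unadjusted p under 0.05 there were 1831, 2110 and 2361 genes. Among members the largest differences were those of Ccnd2, −4.21 between VM and MYC tumours (SE 0.84, unadjusted p = 0.00177, adjusted p = 0.177), and of Ccnd1, −2.61 in the same pair (SE 0.84, adjusted p = 0.296) and 2.33 between VIM and VM tumours (SE 0.64, adjusted p = 0.205). Tubule markers differed in the same pairs, with Umod at 0 to 1.03 units in VM, 24.3 to 2475 in MYC and 34.9 to 3228 in VIM tumours and Epcam at 5.15 to 6.66, 14.1 to 926 and 49.6 to 668. Neither gene was called and their part was not tested. A fit over all 4 tissue groups called Ccnd2 between VM and MYC tumours (adjusted p = 0.0123). Ccne1 was higher by 1.39 in VM (SE 0.42, adjusted p = 0.283) and 1.02 in VIM tumours (SE 0.33, adjusted p = 0.278) than in MYC tumours. Cdk4 and Ccna2 differed by at most 0.23 between genotypes, with SE of 0.23 to 0.38.

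Other genes of the pathway were read from lists of regulators, beside 4.49%, 5.92% and 7.67% of all genes called higher and 15%, 18.9% and 16.6% called lower with Dox in MYC-2983, VM-3055 and VIM-3039. Of 7 CDK inhibitor genes, 0 were called higher with Dox in any line, and 2 were called lower in MYC-2983, 2 in VM-3055 and 1 in VIM-3039. Their median log2 differences were −0.221, −0.485 and −0.48, beside −0.13, −0.26 and −0.15 over all genes tested. Cdkn2b, which encodes the CDK4 and CDK6 inhibitor p15, had a log2 difference of −1.49 (SE 0.06) in MYC-2983 and −1.46 (SE 0.07) in VM-3055 cells, and one of −0.78 (SE 0.05), not called, in VIM-3039. Cdkn1a, which encodes p21, differed by −1.10 (SE 0.05) in VM-3055 cells and was called, against 0.26 (SE 0.03) in VIM-3039, an interaction of 1.35. Its level with Dox was 157 ± 6.59 units in MYC-2983, 549 ± 17.9 in VM-3055 and 2389 ± 4.56 in VIM-3039. The other calls were Cdkn1c, in MYC-2983 and, at 0.713 ± 0.0658 units with Dox and under the floor, in VIM-3039.

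Of 13 RB and E2F genes, 1, 1 and 3 were called higher and 0, 1 and 0 lower in MYC-2983, VM-3055 and VIM-3039, with medians of 0.33, 0.52 and 0.39. A single call among 13 genes in MYC-2983 and VM-3055 is close to the background of higher calls, and the 1 lower call in VM-3055 is under that of lower calls. Tfdp1, which encodes the DNA-binding partner of E2F proteins, was higher by 1.22 (SE 0.05) in VM-3055 and 1.19 (SE 0.04) in VIM-3039, and E2f2 by 1.40 (SE 0.08) in MYC-2983 and 1.25 (SE 0.12) in VIM-3039. Rb1 was lower by −1.19 (SE 0.07) in VM-3055 cells. Of 16 other G1/S regulators, 0, 3 and 3 were called higher and 0 lower, with medians of 0.35, 0.57 and 0.49. In both VM-3055 and VIM-3039 these were Skp2 (1.39 in each), which encodes the ubiquitin ligase subunit for p27, Fbxo5 (1.15 and 1.24), an inhibitor of the anaphase-promoting complex, and Cks2 (1.18 in VIM-3039, at the size threshold in the other line). Of 15 tested genes among other cyclins and kinases, 0, 2 and 3 were higher and 2 lower in each line, with medians of 0.15, 0.14 and 0.33. Ccng2, the gene of cyclin G2, was lower, at −1.01, −1.51 and −1.74. Proliferation genes, 12 in number, had 0, 5 and 9 called higher, and their sum ran from 57461 to 59570 units with Dox in MYC-2983, 49623 to 51164 in VM-3055 and 48396 to 49502 in VIM-3039, against 38422 to 40510, 24381 to 28361 and 21998 to 22552 without. Their part in the differences of the members was not tested.

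In the tumours the background was 18.8%, 17.3% and 18.9% of genes called higher than in kidney and 18.6%, 22.5% and 20.7% called lower (MYC, VM and VIM). Of the 7 CDK inhibitors 4, 3 and 3 were called higher and 1, 0 and 1 lower. Of the 13 RB and E2F genes 5, 6 and 5 were higher and 0 lower. Of the 16 other regulators 8, 6 and 7 were higher and 1, 0 and 0 lower, and of 15 other cyclins and kinases 5, 5 and 4 were higher and 1, 1 and 0 lower. The median log2 differences of these lists lay between 0.53 (other cyclins and kinases in VM tumours) and 1.08 (CDK inhibitors in MYC tumours), beside 0.07, −0.05 and 0.01 over all genes. Cdkn2b, at or under the floor in 4 of the 5 kidneys, was higher by 5.60, 6.07 and 6.87 and Cdkn1a by 1.97, 2.67 and 4.08. E2f8 was higher by 4.57, 4.36 and 3.58, and Ccnb2, a mitotic cyclin gene, by 6.14, 6.34 and 6.19. Proliferation genes were called higher in 12, 11 and 11 of 12 cases.

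Across the means of the 10 groups, the members differed in which other genes were most like them, out of 11867 genes averaging 50 units or more (Pearson's r of log2(value + 1), n = 10 groups that share lines and tissues, given as a description). For Ccnd1 these were Map4k2 (0.948) and Tenc1 (0.929), for Ccnd2 Lphn3 (0.976) and Hoxb9 (0.951), and for Ccnd3 Elovl1 (0.866) and Abcb10 (0.850). Ccne1 was most like Cdc37 (0.993) and Mad2l1 (0.992), Ccne2 Fancb (0.987) and Zfp428 (0.981), and Ccna2 Phgdh (0.987) and F630043A04Rik (0.985). Cdk2 was most like Sf3b3 (0.989) and Rbmx2 (0.988), Cdk4 4930547N16Rik (0.998) and Nuf2 (0.995), Cdk6 Gabpb1 (0.989) and Mboat1 (0.974), and Cdc25a Heatr2 (0.988) and Klf16 (0.985). In the order of group means, all 9 pairs of neighbouring groups overlapped for Ccnd3, whereas for Ccne1 VIM-3039 with Dox lay above and normal kidney below every other library.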

How the data were processed

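RNAseq of 24 cell line, 9 tumour and 5 kidney libraries was read from 1 deposited table. Its signal values were made by the authors, who aligned reads of 75 bases to mm9 with MapSplice, estimated gene levels with RSEM and scaled each upper quartile to 1000. They are not counts, so no count test was run. Of values under 20 reads, 94.1% to 95.8% were whole multiples (within 0.02) of 1 read's worth, which gave the estimated reads. The floors cover counting error only, whereas SD and SE come from the spread between libraries or animals. Groups follow the labels. limma 3.58.1 (R 4.3.3) fitted every comparison over its own groups to log2(value + 1) with a trended eBayes prior, two-sided, keeping genes above 0 in at least 4 cell libraries or 2 animals. The 2 libraries of mouse 2983 were averaged on the log scale. Fold changes understate low genes. Procedures were tested on simulated data. Exon lengths came from the NCBIM37 annotation (mm9), with the exons of all transcripts of a gene merged. Every share per kb depends on these lengths. Members and lists were chosen with earlier results of these data known. Named genes are the members, the engineered genes, at most 4 called genes per list and comparison by size, and the 2 genes most like each member. Alternatives were pseudocounts (0.1, 10), a floor of 10 units on the mean, an unfiltered table, TMM (trims of 30% and 5%) or quantile scaling, a joint fit, a replicate block, single libraries of mouse 2983, KT or B6 kidneys alone and each library left out.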

Additional observations from a re-analysis of the deposited data

Results flagged for a closer look

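Each of 70 member and group combinations of 4 or 5 libraries was examined for a library apart from the rest, and 2 had one, where chance gives about 1 in 20. In VIM-3039 cells without Dox, Cdk2 in replicate 4 had 660 units against 606 for the next library, a gap of 0.829 of the group's range. In normal kidney, Cdc25a in library 5 had 243 units against 161 for the next, a gap of 0.742 of the range.

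Of 30 tests of a member's Dox change between lines, 21 passed on adjusted p. Over all genes, 33.3% passed between VIM-3039 and VM-3055, 46.2% between VM-3055 and MYC-2983 and 47.6% between VIM-3039 and MYC-2983. The VIM-3039 change minus the VM-3055 change was 0.86 for Ccnd1, −0.42 for Ccnd3, −0.24 for Ccne1 and 0.22 for Cdk2. The VM-3055 change minus the MYC-2983 change was −0.82 for Ccnd1, 1.02 for Ccne2, 0.56 for Ccne1, 0.47 for Cdc25a, 0.36 for Ccnd2, 0.30 for Ccnd3, 0.28 for Cdk6, 0.21 for Ccna2 and 0.16 for Cdk2. The VIM-3039 change minus the MYC-2983 change was 0.97 for Ccne2, 0.43 for Cdk6, 0.37 for Cdk2, 0.33 for Cdc25a, 0.32 for Ccna2, 0.32 for Ccne1, 0.25 for Ccnd2 and −0.12 for Ccnd3. After TMM rescaling the difference of Cdk2 between VIM-3039 and VM-3055 was 0.09 (adjusted p = 0.294) and after quantile normalization 0.14 (adjusted p = 0.0789). Other members passed there only after rescaling. These were Cdc25a with TMM (−0.26, limma adjusted p = 0.000948) and quantile normalization (−0.18, 0.0205), Cdk4 with TMM (−0.14, 0.0495) and Ccnd2 with quantile normalization (−0.75, 1.12e-05).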

How the results depend on the processing

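The number of members called stayed within 1.5 times its reported value under every alternative run, except that TMM rescaling called 2 members with Dox in MYC-2983 and the joint fit of 4 tissue groups called 1 between VM and MYC tumours. With a replicate block, 5 members were called with Dox in VM-3055 and no member's call changed. Same-numbered libraries did not deviate together (mean r of −0.0735 in VM-3055, 0.00892 in VIM-3039 and 0.0249 between these lines with Dox). No shared effect of the number was thus seen in these comparisons, but this cannot show whether same-numbered cultures were set up as pairs. Over all genes, a pseudocount of 10 called 1936 with Dox in MYC-2983, and with Dox 1653 (VIM-3039 against VM-3055), 2314 (VM-3055 against MYC-2983) and 2198 (VIM-3039 against MYC-2983, 2342 with a floor of 10 units on the mean). Between VIM and VM tumours it called 26, that floor 24 and the joint fit 477, with 2 to 45 on leaving out 1 library. The joint fit called 337 between VM and MYC and 669 between VIM and MYC tumours, each library of mouse 2983 on its own 33 and 7, and leaving out 1 animal 0 to 10 and 0 to 16. The cause of these shifts was not tested.

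Members whose sign turned were close to 0 or differed widely between tumours. After TMM rescaling these were Cdk6 with Dox in MYC-2983 (0.091, quantile 0.039), Ccnd3 with Dox in VIM-3039 (0.15), Ccna2 in the VIM-3039 against VM-3055 change (−0.022), Ccnd3 (0.11, quantile 0.050) and Ccne1 (0.080, quantile 0.036) between VM-3055 and MYC-2983, Ccnd1 between VIM-3039 and MYC-2983 (0.085, quantile 0.041) and Cdk4 between VIM and MYC tumours (0.021). Of these TMM values, Ccnd3 with Dox in VIM-3039 (limma adjusted p = 0.00153) and between VM-3055 and MYC-2983 (0.0077) passed the p threshold. Between VM and MYC tumours, quantile normalization turned Cdk4 (−0.023), and single libraries of mouse 2983 turned Ccna2 (−0.080) and Cdc25a (−0.021). Leaving out 1 library gave ranges of −0.090 to 0.0049 for Cdk6 with Dox in MYC-2983, −0.029 to 0.019 for Ccnd3 with Dox in VIM-3039, −0.119 to 0.0087 for Ccne2 and −0.050 to 0.017 for Cdk4 in the VIM-3039 against VM-3055 change, −0.0074 to 0.088 for Ccnd1 in the VIM-3039 against MYC-2983 change and −0.075 to 0.0049 for Ccne2 between VIM-3039 and VM-3055. In VIM tumours against kidney it gave −0.76 to 0.18 for Ccnd2 and −0.027 to 0.53 for Cdk6. Between VIM and VM tumours it gave −1.53 to 0.35 for Ccne2 and −0.51 to 0.071 for Ccna2. Between VM and MYC tumours it gave −0.30 to 0.31 for Ccna2, −0.020 to 0.16 for Cdk4, −0.89 to 0.14 for Cdk6 (0.25 without mouse 2983) and −0.19 to 0.25 for Cdc25a. Between VIM and MYC tumours it gave −0.44 to 0.36 for Ccnd1, −0.53 to 0.018 for Ccna2 (0.13 without mouse 2983) and −0.32 to 0.039 for Cdk4. The count test on whole reads was not run, because whole reads could not be recovered for every library. Depth limits the kidney values of Ccne1, which lie near the floor.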
